A study of Mus musculus with 96 samples.

Results

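Fibroblasts (FBs) of the mouse heart were compared 7 days after myocardial infarction (D7) with FBs of control mice that had no infarction (D0). The comparison used the 4 small RNA libraries of FBs at D7 and the 4 at D0, which are 8 of the 96 libraries of the series and 8 of its 24 FB libraries, and every mature miRNA listed in them. All animals were male C57Bl/6J mice, and those infarcted were 12 to 14 weeks old at surgery, when the left anterior descending coronary artery was tied off permanently. No sham-operated group is among the groups compared, so the infarction and the operation cannot be told apart. FBs were the cells of digested hearts that bound neither CD45 beads, which take leukocytes, nor the beads for endothelial cells, and that stuck to uncoated dishes within 40 minutes. They are described as mostly positive for DDR2, a collagen receptor of fibroblasts. Hearts were digested as a whole, so cells of the scar and of remote muscle were mixed, and a change in the share of a cell type and a change in RNA per cell cannot be told apart. Each library held material of 3 mice, or 2 where a sample was missing. The libraries are called biological replicates in the labels, and p-values measure the spread between these pools.

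Cardiac fibroblasts hold the collagen matrix of the heart. After an infarction they multiply, become contractile myofibroblasts and lay down the scar. A miRNA is cut from a hairpin precursor as a short 5p or 3p arm, and it lowers the output of mRNAs that pair with its seed, bases 2 to 8. miRNAs with the same seed can therefore bind the same sites, and miRNAs whose hairpins lie close together are often cut from 1 primary transcript.

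The mature sequences that carry the main contrasts are shown here 5′ to 3′ with the seed in capitals, from RefSeq on GRCm38.p6, the mm10 assembly that the submitters name. RefSeq held 1 sequence for 474 of the 563 miRNAs tested. The miR-29 arms are known to target collagen mRNAs, and all 3 fell at D7. miR-29a lies at chr6:31062673-31062694 on the minus strand, and miR-29c at chr1:195037600-195037621 on the plus strand, in an exon of the noncoding RNA A330023F24Rik.
miR-29a-3p: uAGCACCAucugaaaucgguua
miR-29b-3p: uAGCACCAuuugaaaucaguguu
miR-29c-3p: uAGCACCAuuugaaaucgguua
The next 3 share the seed of miR-125, and the X-linked member rose while the others fell.
miR-125b-5p: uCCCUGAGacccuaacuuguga
miR-125a-5p: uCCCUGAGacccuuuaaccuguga
miR-351-5p: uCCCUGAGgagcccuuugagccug
Of the 3 arms with the miR-148 seed, miR-148a-3p alone was called changed.
miR-148a-3p: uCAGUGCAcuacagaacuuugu
miR-148b-3p: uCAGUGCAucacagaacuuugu
miR-152-3p: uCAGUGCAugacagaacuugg
In the let-7 seed group, which here leaves out the entry let-7j, let-7d-5p had the largest fall and let-7i-5p was the single member called higher.
let-7d-5p: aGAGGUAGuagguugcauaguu
let-7i-5p: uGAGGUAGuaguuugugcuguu
Finally, miR-21a-5p, miR-146b-5p and miR-409-3p are shown as prominent rises with unrelated seeds, and miR-183-5p and miR-182-5p as the rises with the largest folds of those described.
miR-21a-5p: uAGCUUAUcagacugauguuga
miR-146b-5p: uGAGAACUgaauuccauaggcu
miR-409-3p: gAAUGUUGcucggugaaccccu
miR-183-5p: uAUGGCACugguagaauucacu
miR-182-5p: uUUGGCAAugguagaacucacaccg

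Counts aligned to mature miRNAs ranged from 2217588 to 19196750 per library at D0 and from 3830872 to 65588543 at D7. Of 1978 mature miRNAs listed, 1164 had counts in these libraries and 563 were tested. Levels are given as CPM, a count scaled to a fixed library total, on the scale of the TMM factors, which set the bulk of miRNAs equal between libraries. D0 replicate 2, the shallowest library, stood apart. Its root mean square log2 difference to the other D0 libraries reached 1.32, against a median of 0.562 among those 3 and 0.689 within D7. The median between the days was 1.22. Results that rest on D0 replicate 2 are therefore given with and without it.

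At D7, 138 miRNAs were higher and 119 lower than at D0 at an adjusted p under 0.05 (edgeR quasi-likelihood test, Benjamini-Hochberg), which is 45.6% of those tested (24.5% higher and 21.1% lower). Of these, 93 rose and 37 fell at least 2-fold. In 20.4% of the miRNAs tested all 4 D7 libraries lay above all 4 D0 libraries, and in 17.4% all lay below. The split depended on scaling: with library size alone 164 were higher and 69 lower, because the median log2 fold change of all miRNAs was -0.07 with TMM and 0.14 without, a shift of 0.21.  The plot of change against level shows that the largest rises were at low level, while both directions reached the most abundant miRNAs.

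**Figure D1:**
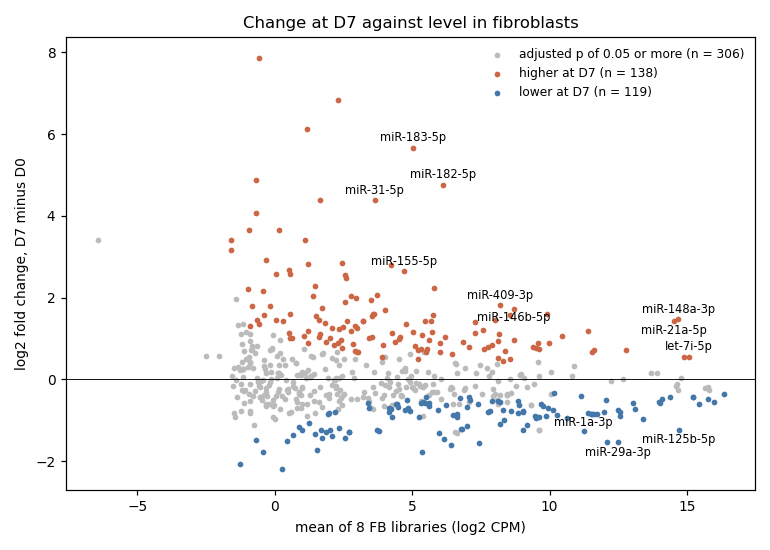
Each point is 1 of the 563 miRNAs tested, with the log2 of its mean CPM over 8 FB libraries on the horizontal axis and its log2 fold change (D7 minus D0) on the vertical axis. Red points (138) were higher and blue points (119) lower at D7. The changes above 4 all lie at low level, and the falls of miR-29a-3p, miR-1a-3p and miR-125b-5p stand at -1.53, -1.27 and -1.23.

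The largest rises among miRNAs of at least 100 CPM came from the imprinted Dlk1-Dio3 domain and from a few abundant single miRNAs. miR-409-3p was at 135, 174, 108 and 100 CPM in the D0 libraries and at 469, 271, 404 and 677 CPM at D7. Every D7 library exceeded every D0 library, and the log2 fold change was 1.83 (SE 0.29, adjusted p = 2.5e-05). miR-146b-5p, a brake on NF-kB signaling through TRAF6 and IRAK1, was at 191, 200, 168 and 217 CPM at D0. It reached 741, 429, 651 and 743 CPM at D7, again without overlap (log2 fold change 1.72, SE 0.19, adjusted p = 7.8e-08). Its sister miR-146a-5p, which has the same seed, was higher on average (646 ± 71.0 CPM at D0 and 870 ± 228 CPM at D7, SD, n = 4) but did not pass (log2 fold change 0.43, adjusted p = 0.059). It passed without D7 replicate 2 (0.60, adjusted p = 0.0061) and in DESeq2 (adjusted p = 0.026).

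miR-148a-3p rose from 14138, 13877, 14745 and 12958 CPM to 38436, 35282, 32720 and 47726 CPM. The lowest D7 library stood at more than 2-fold the highest D0 library, and the log2 fold change was 1.47 (SE 0.15, adjusted p = 4.5e-08). miR-21a-5p, a miRNA known for promoting fibrosis and cut from a transcript of Vmp1, was at 9570, 8365, 16629 and 15968 CPM at D0. At D7 it stood at 34172, 28232, 34383 and 40279 CPM, with no overlap and a log2 fold change of 1.44 (SE 0.24, adjusted p = 4.6e-05). Its other arm, miR-21a-3p, had 6.05 ± 3.62 CPM at D0 and 9.19 ± 2.18 CPM at D7 (SD, n = 4; adjusted p = 0.27). miR-224-5p, in an intron of Gabre, rose by 1.40 on the log2 scale, from 85.2 ± 16.4 to 223.25 ± 53.1 CPM.

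**Figure D2:**
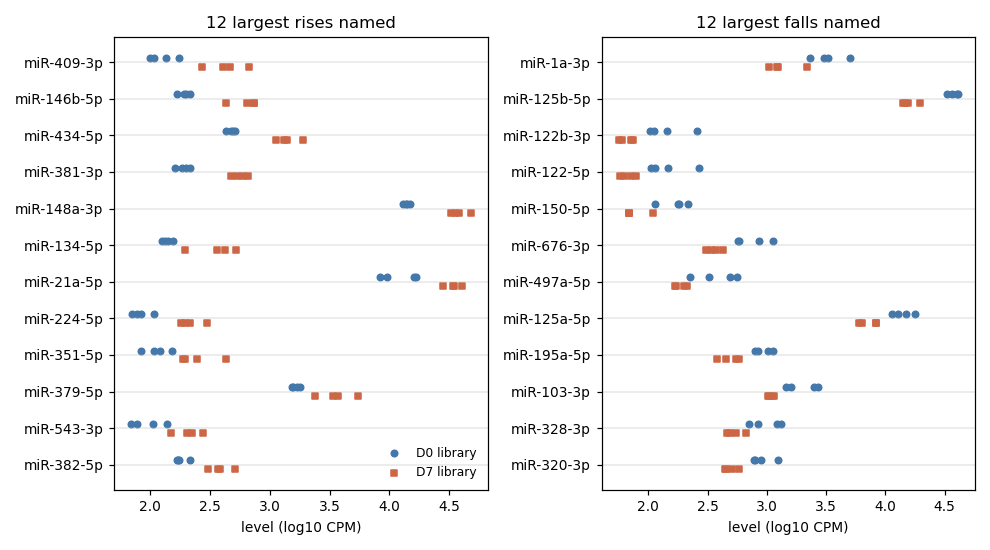
Level in every library (log10 CPM) of the 12 largest rises and the 12 largest falls among miRNAs with an adjusted p under 0.05, at least 100 CPM on average and no overlap of the days. Circles are the 4 D0 libraries and squares the 4 D7 libraries. The days lie apart in every row because the rule required it, with miR-148a-3p and miR-434-5p among the wide gaps and miR-1a-3p among the narrow ones.

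The Dlk1-Dio3 domain on chromosome 12 is imprinted, and its miRNAs are expressed from the maternal chromosome. The domain holds one of the largest groups of miRNA hairpins in mammals. Of 72 mature members tested, 48 were higher and none lower at D7, and their median log2 fold change was 0.93, against -0.07 for all miRNAs and 24.5% called higher among them. All D7 libraries exceeded all D0 libraries for 43 of the 72, against 20.4% of all miRNAs tested. Without D0 replicate 2, 46 were higher and 1 lower, with the same median of 0.93. In DESeq2 51 were higher, and with library size alone 55.

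Members of the domain rose along its whole length. Hairpins within 10 kb of each other formed a group from Mir770 to Mir136 (chr12:109563692-109595388), where 11 of 18 tested arms were higher with a median of 0.75. In the longer group from Mir379 to Mir3072 (chr12:109709060-109747960), 31 of 45 were higher with a median of 0.98. Changes within the domain were uneven. The most abundant member, miR-127-3p, went from 5626, 5802, 5256 and 4733 CPM to 7632, 7190, 8390 and 11774 CPM, a log2 fold change of 0.71 (SE 0.17, adjusted p = 0.0012). miR-379-5p went from 1523, 1793, 1685 and 1578 CPM to 3404, 2411, 3710 and 5426 CPM (1.18, SE 0.20, adjusted p = 5.1e-05). Further up in fold, miR-434-5p reached 1438 ± 328 CPM from 477 ± 35.98 CPM (1.59) and miR-381-3p 567 ± 80.8 CPM from 191 ± 24.1 CPM (1.57). miR-134-5p, miR-543-3p and miR-382-5p rose by 1.45, 1.13 and 1.12, and miR-541-5p and miR-411-5p by 1.07 and 0.89. The rises of miR-323-3p (2.80, 5.11 to 32.8 CPM) and miR-341-3p (2.24, 18.97 to 90.5 CPM) were larger still but at lower level; these were picked after their values were seen.

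A second cluster, on the minus strand of the X chromosome (chrX:53047997-53054349, Mir450b to Mir322), rose as well. The cluster, of miR-322, miR-503, miR-351, miR-542 and miR-450, is known for regulating the cell cycle and muscle differentiation. Of 12 arms with these names tested, 7 were higher and none lower (median 0.87), against 24.5% called higher among all miRNAs. The grouping by position at these coordinates left out miR-351 and had 5 of 10 arms higher (median 0.78). miR-351-5p was at 120, 151.6, 84.2 and 109 CPM at D0 and at 248, 187, 194 and 432 CPM at D7. D7 replicate 4 was the highest, no D7 library lay within the D0 range, and the log2 fold change was 1.20 (SE 0.27, adjusted p = 0.00089). miR-450a-5p rose from 146 ± 23.3 to 244 ± 67.8 CPM (0.74, adjusted p = 0.014), a call that was lost without D7 replicate 4 (0.53, adjusted p = 0.091). miR-322-5p had 32.9 ± 12.5 and 53.7 ± 16.8 CPM and narrowly missed the threshold (0.68, adjusted p = 0.056). It passed in DESeq2 (0.74, adjusted p = 0.023) and without D0 replicate 4 (adjusted p = 0.034) or D7 replicate 2 (adjusted p = 0.048).

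In the miR-34 family, which p53 induces, all 5 arms tested were higher (median 0.90, and 4 of 5 without D0 replicate 2). Among all miRNAs 24.5% were called higher. miR-34c-5p was at 518, 443, 941 and 880 CPM at D0 and at 1375, 1024, 1260 and 1527 CPM at D7 (0.90, SE 0.24, adjusted p = 0.0032). The D0 values split into a lower and a higher pair, but all D7 values lay above both. miR-34b-5p rose from 253 ± 71.7 to 413 ± 64.2 CPM (0.71, adjusted p = 0.032), a call lost without D0 replicate 1 or 2 or D7 replicate 1, 3 or 4 (0.59 to 0.70, adjusted p = 0.054 to 0.090). All 4 arms of miR-132 and miR-212, which are CREB targets linked to hypertrophy, were higher (median 0.93), beside the same 24.5%. Of these, miR-212-5p rose from 32.6 ± 4.81 to 72.3 ± 11.9 CPM (1.16) and miR-132-3p from 30.4 ± 3.42 to 43.1 ± 8.80 CPM (0.50, adjusted p = 0.033). The second of these calls was lost without D0 replicate 1 (adjusted p = 0.060), D0 replicate 4 (adjusted p = 0.063) or D7 replicate 4 (0.35, adjusted p = 0.16).

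miR-7a-5p was at 443, 474, 716 and 523 CPM at D0 and at 946, 493.7, 1098 and 1119 CPM at D7. D7 replicate 2 lay inside the D0 range and the other D7 libraries above it (0.76, adjusted p = 0.0088). miR-7b-5p, which is so alike that reads may be shared, moved the same way (0.79), and 2 of 3 miR-7 arms were higher. Among the 34 tested members of the rodent Sfmbt2 cluster families, 8 were higher and none lower (median 0.40), a share near the 24.5% called higher among all miRNAs. miR-467a-5p was the most abundant of them at 24.3 ± 3.16 and 64.1 ± 14.2 CPM (1.42, adjusted p = 1.8e-06). miR-669c-5p did not pass (0.42, adjusted p = 0.10). Counts of these families are uncertain, since their members are near copies of each other. Of the arms of miR-148a, miR-148b and miR-152, 3 of 6 were higher and none lower.

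The falls were led by the miR-29 family, in which 6 of 7 arms were lower and none higher (median -1.43, against 21.1% called lower among all miRNAs). miR-29a-3p was at 7531, 3421, 12396 and 10771 CPM at D0 and at 2397, 3259, 3802 and 2388 CPM at D7. D0 replicate 2 lay inside the D7 range, and the other D0 libraries lay far above it. The log2 fold change was -1.53 (SE 0.29, adjusted p = 0.00014). miR-29c-3p repeated this picture, with 5307, 2524, 9916 and 8469 CPM at D0 and 1788, 2486, 2968 and 1793 CPM at D7 (-1.54, SE 0.30, adjusted p = 0.00022). miR-29b-3p was the least abundant, at 258 ± 169 and 88.2 ± 20.4 CPM (-1.55, adjusted p = 0.011). Its D0 replicate 2, at 37.8 CPM, lay below every D7 library, and its call was lost without D0 replicate 3 (-1.15, adjusted p = 0.066). Without D0 replicate 2, 6 of the 7 arms were again lower.

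The strongest fall of a very abundant miRNA was that of miR-125b-5p, which has copies on chromosomes 9 and 16. It was at 39895, 41007, 36180 and 33092 CPM at D0 and at 15568, 19627, 13950 and 14730 CPM at D7. The days did not overlap and the log2 fold change was -1.23 (SE 0.16, adjusted p = 1.5e-06). miR-125a-5p fell from 14117 ± 2721 to 7223 ± 1240 CPM (-0.97, adjusted p = 0.00014). Their cluster mates did not all follow. miR-99a-5p had 59573 ± 12893 CPM at D0 and 52211 ± 6924 CPM at D7 (adjusted p = 0.32), and miR-100-5p, whose hairpin lies in the same noncoding transcript as miR-125b-1, had 54735 ± 11208 and 47114 ± 6180 CPM (adjusted p = 0.26). miR-10a-5p and miR-10b-5p, from the Hox clusters, rose to 3893 ± 856 and 3648 ± 722 CPM (0.71 and 0.67, adjusted p = 0.011 for both). In all, 3 of the 14 arms of miR-99, miR-100, miR-125 and miR-10 were higher and 3 lower. These shares are near the 24.5% called higher and 21.1% called lower among all miRNAs.

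The let-7 family, a brake on growth, holds the most abundant miRNAs of these libraries. Of 20 arms tested, 10 were lower, 1 higher and 9 not called (median -0.40), against 21.1% called lower among all miRNAs. The entry let-7j, whose name gives no arm, was outside this list, at a mean of 30585 CPM. In an edgeR fit of FBs with 2 other cell types, on a scale shared by them, its log2 fold change in FBs was 1.00. That of let-7i-5p was 1.01 in the same fit. Without D0 replicate 2 the number lower was 6, and with library size alone it was 5. let-7c-5p went from 75537, 88650, 73060 and 67450 CPM to 56998, 53650, 47047 and 50362 CPM (-0.55, SE 0.12, adjusted p = 0.0009). let-7a-5p, the most abundant miRNA, was at 92955 ± 7390 and 72877 ± 3390 CPM (-0.35, adjusted p = 0.012), a call lost without D0 replicate 2 (-0.26, adjusted p = 0.089) and with library size alone (-0.12, adjusted p = 0.24). let-7f-5p had 62604 ± 3619 and 52011 ± 2084 CPM (-0.27, adjusted p = 0.061). Against these, let-7i-5p rose from 27136, 28654, 30724 and 24934 CPM to 46267, 30232, 37010 and 50338 CPM (0.56, SE 0.14, adjusted p = 0.0024), with D7 replicate 2 inside the D0 range.

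In 4 further groups of abundant miRNAs, some arms were lower and none higher, beside 21.1% called lower among all miRNAs. In the miR-30 family, 7 of 11 arms were lower and none higher (median -0.46), but with library size alone 1 was lower. miR-30a-5p went from 19959 ± 3575 to 13366 ± 1043 CPM and miR-30d-5p from 19264 ± 2682 to 13030 ± 924 CPM (-0.58 and -0.56, adjusted p = 0.012 for both; 0.12 for both with library size alone). In the miR-26 family, cut from introns of the Ctdsp phosphatase genes, 4 of 5 arms were lower. miR-26a-5p went from 64880 ± 6364 to 46341 ± 6216 CPM (-0.49) and miR-26b-5p from 5136 ± 962 to 2928 ± 565 CPM (-0.81). In the miR-181 family 4 of 9 arms were lower, miR-181a-5p from 4066 ± 350 to 2244 ± 439 CPM (-0.86) and miR-181b-5p from 1406 ± 78.5 to 841 ± 115 CPM (-0.74). The less abundant miR-181c-5p had a larger change (104 ± 40.9 to 38.3 ± 7.39 CPM, -1.45, adjusted p = 0.00022), with D0 replicate 2 inside the D7 range. Of the miR-23, miR-27 and miR-24 arms, 4 of 11 were lower (21.1% of all miRNAs were), and the abundant miR-27a-3p (26708 ± 3616 and 24488 ± 2033 CPM) and miR-27b-3p (26398 ± 3747 and 23640 ± 1435 CPM) did not pass (adjusted p = 0.43 and 0.27).

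The family of miR-15, miR-16, miR-195a and miR-497a restrains the cell cycle. Of its 10 arms 5 were lower and none higher (median -0.64), against 21.1% lower among all miRNAs. miR-16-5p was at 1056, 898, 1504 and 1409 CPM at D0 and at 610, 710, 693 and 602 CPM at D7 (-0.90, SE 0.18, adjusted p = 0.00023). miR-195a-5p fell by 0.95 and miR-497a-5p by 1.10 on the log2 scale, without overlap of the days. The miR-17-92 cluster, which promotes proliferation, had 3 of 9 arms lower and none higher (median -0.60), against 21.1% lower among all miRNAs. Without D0 replicate 2, 6 of 9 arms were lower. miR-20a-5p was at 215, 160, 475 and 479 CPM at D0 and at 233, 184, 230 and 232 CPM at D7 (-0.60, adjusted p = 0.11; 0.027 without D0 replicate 2). Here D0 replicates 3 and 4 stood above all other libraries. miR-19b-3p fell from 276 ± 115 to 160 ± 21.4 CPM (-0.80, adjusted p = 0.023), a call lost with library size alone (-0.57, adjusted p = 0.11) and without D0 replicate 3 or 4 or D7 replicate 4 (adjusted p = 0.068 to 0.10). In the related cluster inside Mcm7, 2 of 6 arms were lower (21.1% of all miRNAs were), and none was lower with library size alone or in the fit of the D0 and D7 libraries only. miR-25-3p was at 2596 ± 452 and 1942 ± 56.2 CPM (-0.42, adjusted p = 0.024; 0.30 with library size alone, and 0.055 to 0.12 without D0 replicate 2 or 3 or D7 replicate 1) and miR-93-5p at 319 ± 127.5 and 225 ± 21.9 CPM (adjusted p = 0.12). Neither tested arm of the miR-106a-363 cluster was called: miR-106a-5p had a log2 fold change of -0.61 (adjusted p = 0.11) and miR-20b-5p one of -0.49 (adjusted p = 0.34).

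For the remaining families, counts in both directions were small, beside 24.5% called higher and 21.1% called lower among all miRNAs. Of the arms of miR-130 and miR-301, 2 of 7 were higher and 1 lower, with miR-130a-3p at 25.7 ± 4.14 and 17.03 ± 3.54 CPM (-0.60, a call lost without D0 replicate 3 or 4 or D7 replicate 1) and miR-301a-5p at 5.75 ± 0.255 and 9.52 ± 1.58 CPM (0.70). Of the arms of miR-221 and miR-222, 2 of 4 were lower, miR-221-3p by -0.52 and miR-222-3p by -0.50. With library size alone neither passed and 1 arm was higher, and miR-221-3p also missed without D0 replicate 3 (adjusted p = 0.053) or D7 replicate 3 (adjusted p = 0.058). Neither arm of miR-210, the miRNA of hypoxia, was called: miR-210-3p had 44.1 ± 16.5 and 39.3 ± 3.34 CPM (adjusted p = 0.61), and miR-210-5p was near 0. Falls outside these lists were those of miR-676-3p (788 ± 263 to 361 ± 50.5 CPM, -1.12), miR-103-3p (2069 ± 638 to 1082 ± 57.2 CPM, -0.94), miR-328-3p (1024 ± 296 to 542.9 ± 91.4 CPM, -0.92) and miR-320-3p (927 ± 213.8 to 496.3 ± 61.6 CPM, -0.90).

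**Figure D3:**
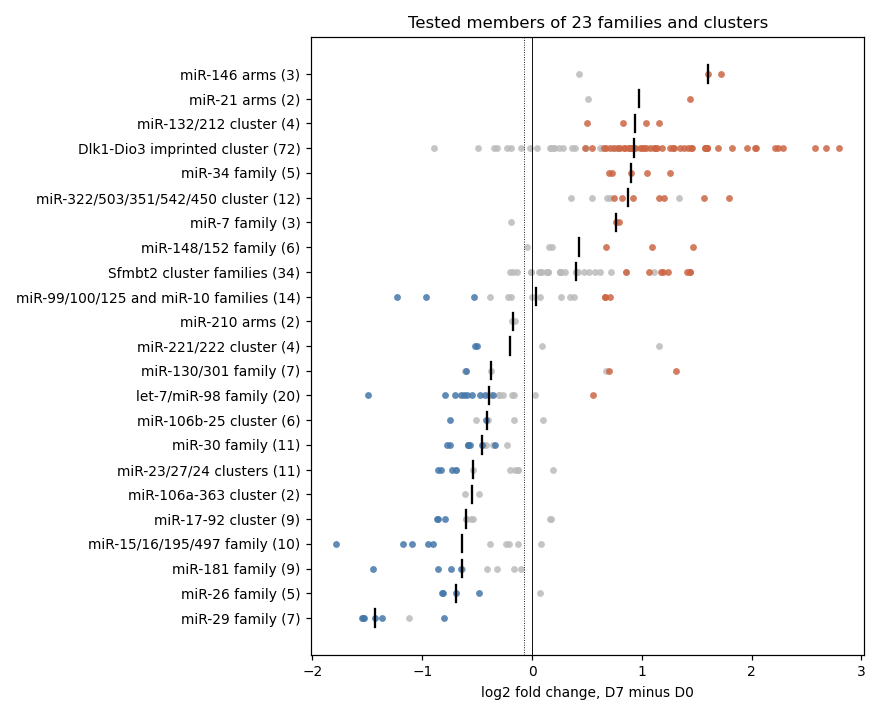
Log2 fold change (D7 minus D0) of every tested member of 23 miRNA families and clusters, with the number tested in brackets. Red points were called higher, blue points lower and grey points neither; the thick bar is the median of the list and the dotted line the median of all miRNAs. The medians run from -1.43 for the miR-29 family to 1.60 for the miR-146 arms.

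miRNAs with the same seed were compared for their direction. Among 49 seeds with at least 2 tested miRNAs, 7 had every member higher, 8 every member lower, 2 members in both directions and 13 no member called. Beside these, 24.5% of all miRNAs were called higher and 21.1% lower. Some seed mates were not separate measurements, such as miR-199a-3p and miR-199b-3p, which had identical counts and were both lower. Whether seed mates agreed more often than other miRNAs was not tested. The 2 mixed seeds were those of let-7 and of miR-125, whose sequences stand at the start. In the second, miR-351-5p rose while miR-125b-5p and miR-125a-5p fell, and their levels at D7 were 265 ± 114, 15969 ± 2527 and 7223 ± 1240 CPM, so the member that rose was much the rarest. For the AGCAGCA seed, miR-16-5p, miR-195a-5p, miR-497a-5p and miR-15a-5p (-1.78, adjusted p = 0.004) were lower, while miR-15b-5p and miR-322-5p were not called. The difference between members was not tested. For miR-15a-5p, D0 replicate 2, at 7.46 CPM, lay below every D7 library (13.6 to 23.9 CPM). For the miR-148 seed, miR-152-3p had 4920 ± 1131 and 4782 ± 284 CPM (log2 fold change -0.04, SE 0.14) and miR-148b-3p 1004 ± 229 and 1138 ± 36.2 CPM (0.18, SE 0.16), beside the rise of miR-148a-3p by 1.47.

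A set of rises at low level had the largest folds of those described and was picked after its values were seen. miR-183, miR-96 and miR-182 lie together on chromosome 6 and are best known from sensory cells. miR-183-5p was at 1.08, 2.49, 1.42 and 0.981 CPM at D0 and at 49.9, 24.5, 96.2 and 86.2 CPM at D7 (log2 fold change 5.67, SE 0.57, adjusted p = 4.5e-08). miR-182-5p was at 4.47, 4.47, 6.00 and 4.58 CPM at D0 and at 115, 53.2, 194 and 174 CPM at D7 (4.77, SE 0.45, adjusted p = 3.6e-08). In both, the lowest D7 library was D7 replicate 2, and it still stood far above every D0 library. miR-31-5p rose from 1.28 ± 0.503 to 23.4 ± 5.35 CPM (4.40, SE 0.43, adjusted p = 4.1e-08). Some fitted changes were larger, for miRNAs with few or no counts at D0, and are not given.

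Markers of other cells were checked in the same libraries. The fibroblast markers miR-199 and miR-214 summed to 79648 to 124130 CPM (library size only) at D0 and to 98337 to 115290 CPM at D7, against at most 12076 CPM in hematopoietic cells (HCs), 21573 CPM in endothelial cells (ECs) and 4383 CPM in cardiomyocytes (CMs) on the same days. The defining markers of fibroblasts were thus high on both days. Among the 6 arms, miR-199a-3p and miR-199b-3p, which had identical counts, were lower (43909 ± 7991 to 32749 ± 3122 CPM, -0.42, adjusted p = 0.015), a call lost with library size alone (adjusted p = 0.25) and without D0 replicate 3 (adjusted p = 0.072). miR-214-5p was higher (229 ± 22.3 to 328 ± 45.3 CPM, 0.52, adjusted p = 0.012). The others did not pass: miR-199a-5p had 14511 ± 3849 and 16071 ± 2350 CPM, miR-199b-5p 12456 ± 3729 and 13766 ± 2041 CPM, and miR-214-3p 464 ± 62.6 and 500 ± 101 CPM.

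The CM marker miR-1a-3p had the largest fall by the naming rule, from 3258, 3047, 2292 and 5045 CPM to 1233, 1044, 1210 and 2164 CPM (-1.27, SE 0.39, adjusted p = 0.0099). It made up most of the CM marker sum. That sum was 2058 to 4863 CPM at D0 and 1128 to 2365 CPM at D7, against at least 393770 CPM in CMs. Of 4 tested CM markers 1 was lower, beside 21.1% called lower among all miRNAs. D7 replicate 4 was the highest D7 library for miR-1a-3p and for miR-499-5p, the latter at 32.9 CPM against 7.60 to 9.94 CPM in the others. miR-499-5p, miR-133a-3p and miR-208a-3p did not pass in all libraries (adjusted p = 0.34, 0.20 and 0.66) and passed without D7 replicate 4 (-1.40, -1.40 and -2.21; adjusted p = 0.045, 0.021 and 0.0095). miR-208b and the other arms of miR-133a, miR-208a and miR-499 had 10 counts or fewer in every library. The part of CM RNA in any other result was not tested.

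Leukocyte markers summed to 231 to 247 CPM at D0 and 160 to 233 CPM at D7, against 13254 to 24551 CPM in HCs at D7. The myeloid markers miR-223-3p and miR-223-5p reached at most 1.49 CPM in any library. Of 10 arms, 4 were higher and 3 lower, beside 24.5% called higher and 21.1% called lower among all miRNAs. The 4 were the arms of miR-155 and miR-147, which inflammatory stimuli induce in many cell types. miR-155-5p rose from 9.22, 3.48, 7.48 and 7.36 CPM to 40.2, 23.8, 57.4 and 59.9 CPM (2.64, SE 0.29, adjusted p = 1e-07). miR-147-3p went from 0.475 ± 0.332 to 4.20 ± 1.48 CPM. The lymphocyte miRNA miR-150-5p fell from 182, 218, 114 and 179 CPM to 69.3, 110, 69.2 and 68.5 CPM (-1.13, adjusted p = 0.00066). miR-142a-5p fell from 19.5 ± 11.5 to 7.92 ± 5.24 CPM (-1.25, adjusted p = 0.02), a call lost without D0 replicate 3 (adjusted p = 0.16) or D7 replicate 1, 2 or 4 (adjusted p = 0.056 to 0.067), while miR-142a-3p had 54.2 ± 31.3 and 28.8 ± 15.4 CPM (adjusted p = 0.12).

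Of the EC markers none of 4 was called, with miR-126a-3p at 28464 ± 3842 and 23890 ± 4048 CPM (adjusted p = 0.35) and a marker sum of 21895 to 28906 CPM at D7, against at least 191200 CPM in ECs. miR-126a-5p and miR-126b-3p, whose counts were nearly the same, passed without D0 replicate 2 (-0.77, adjusted p = 0.021). Erythroid markers summed to 1487 to 4612 CPM at D0 and 878 to 2527 CPM at D7. Of 7 arms 2 were lower, both of miR-144, beside 21.1% called lower among all miRNAs. The fit of the D0 and D7 libraries only had 6 lower and library size alone 1. miR-144-5p went from 127.03 ± 97.8 to 41.8 ± 23.01 CPM (-1.60, adjusted p = 0.014) and lost its call without D0 replicate 3 (-0.90, adjusted p = 0.15). miR-451a was at 419 ± 330 and 287 ± 173 CPM (adjusted p = 0.43), and the miR-486 arms were just outside the threshold (adjusted p = 0.051 to 0.056). Of 4 arms of the mural cell markers, miR-143-3p was not called (27623 ± 2109 and 28059 ± 3327 CPM, log2 fold change 0.02, SE 0.13), and the less abundant miR-145a-5p, miR-145a-3p and miR-143-5p were lower (-0.59, -0.75 and -0.57). With library size alone miR-145a-3p was the one still called, and the call of miR-145a-5p was lost without D0 replicate 3 or D7 replicate 1, 3 or 4, that of miR-143-5p without D0 replicate 3 or 4 or D7 replicate 1, 3 or 4. miR-122-5p, a miRNA of hepatocytes that is abundant in plasma, fell by 1.22 on the log2 scale, from 158 ± 74.9 to 67.7 ± 9.13 CPM, and miR-122b-3p, with nearly the same counts, also by 1.22. How far other cells or carried-over RNA set these values was not tested.

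The other days place D7 in the course of healing. They share the D0 libraries with the comparison above, so their values stand side by side without a test between days. For the Dlk1-Dio3 members the median log2 fold change against D0 moved from -0.05 on D1 through 0.70 (D3) and 0.93 (D7) to 0.40 (D14) and 0.03 (D28). For the miR-29 arms it was -0.16, -0.49, -1.43, -1.10 and -0.20 in the same order. The miR-17-92 arms, by contrast, had medians of 0.87 (D1), 1.02 (D3) and -0.60 (D7). A similar change of sign was seen for the miR-106b-25 arms, with 0.72, 0.60 and -0.41. miR-7a-5p had its largest value at D3 (2.29) and 0.76 at D7.

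**Figure D4:**
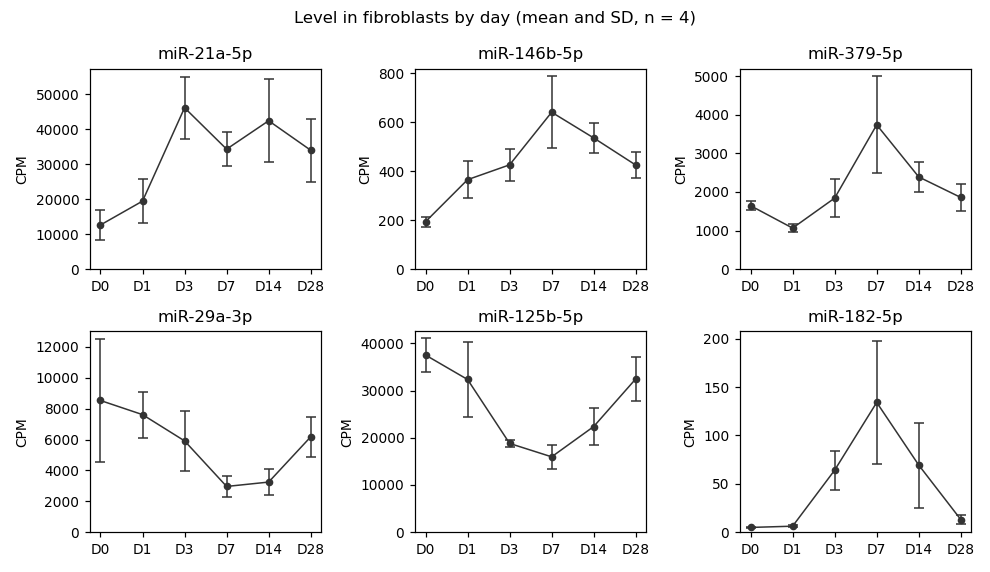
Mean level in FBs (CPM, TMM scale) of 6 miRNAs on each day, with bars of 1 SD over 4 libraries. miR-146b-5p, miR-379-5p and miR-182-5p have their highest mean at D7 and miR-29a-3p and miR-125b-5p their lowest, while miR-21a-5p has its highest mean at D3.

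miR-182-5p was at 4.88 ± 0.745 CPM at D0, 134.1 ± 63.7 CPM at D7 and 13.0 ± 4.23 CPM at D28. miR-125b-5p had 32492 ± 4687 CPM at D28, where it was not called against D0 (adjusted p = 0.53). miR-31-5p differed from these in that it stood at 4.40 (log2 against D0) on D7 and at 5.26 on D28.

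The balance of the arms of a hairpin is free of scaling between libraries. It was followed as the log2 of 5p over 3p counts, for hairpins whose arms both averaged 10 counts or more. This ratio changed in 33 hairpins, which is 22.4% of those tested (limma, Benjamini-Hochberg adjusted p under 0.05), 18 toward 5p and 15 toward 3p. The count was 15 when the fit used the 8 libraries of D0 and D7 only and 17 without D0 replicate 3. miR-434 had ratios of 0.75, 1.09, 1.13 and 0.98 at D0 and of 2.19, 2.03, 2.23 and 2.35 at D7, with no overlap (change 1.21, SE 0.21, adjusted p = 0.0011). Its 5p arm rose by 1.59 and its 3p arm had 0.37 (adjusted p = 0.12). The ratio of miR-455 moved the same way, from 1.58 ± 0.30 to 2.55 ± 0.29 (SD, n = 4, change 0.96, adjusted p = 0.0051). There the 3p arm fell (-0.56, edgeR adjusted p = 0.041) and the 5p arm was not called (0.35, adjusted p = 0.15).

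miR-376b changed its dominant arm, as 4 of the 33 hairpins did. Its ratio was 1.47, 0.74, 1.37 and 1.05 at D0 and -0.40, 0.47, -0.97 and -1.30 at D7 (change -1.71, SE 0.36, adjusted p = 0.0051). D7 replicate 2 was the library in which 5p still led. The 3p arm rose (1.59, adjusted p = 0.0003) while the 5p arm had -0.34 (adjusted p = 0.18). miR-181c fell from 2.09 ± 0.54 to 0.80 ± 0.40 and miR-296 from 1.33 ± 0.29 to 0.18 ± 0.12 (changes -1.29 and -1.15, adjusted p = 0.0069 and 0.0051). For miR-151, the ratio was -0.80, -3.02, -0.56 and -0.73 at D0 and between -3.09 and -2.34 at D7 (change -1.45, adjusted p = 0.024). D0 replicate 2 lay inside the D7 range there, and the call was lost in the fit of 8 libraries (adjusted p = 0.099). The rises of miR-667 (1.38, SE 0.40) and miR-450b (1.06, SE 0.33) rested on low counts, down to 1 and 6 in a library, and were lost in that fit too (adjusted p = 0.081 and 0.077).

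**Figure D5:**
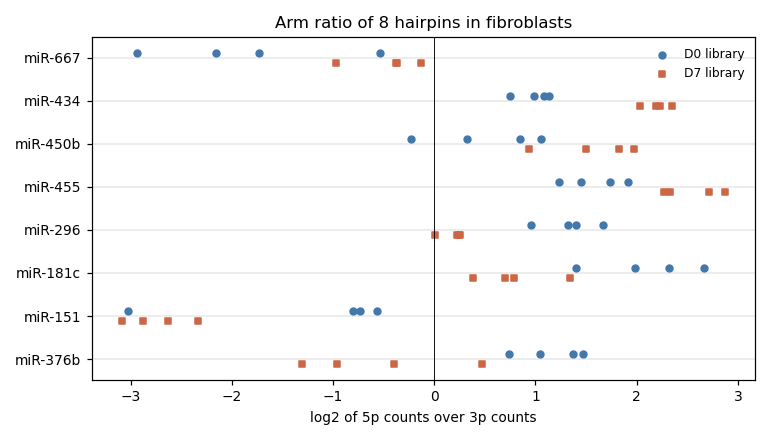
Log2 of 5p counts over 3p counts (pseudocount 0.5) in each FB library for the 4 hairpins with the largest rises and the 4 with the largest falls of this ratio among changed hairpins whose arms both averaged 50 counts or more. Circles are D0 and squares D7; right of the line at 0 the 5p arm leads. miR-434 and miR-455 move right without overlap, and miR-376b crosses the line in 3 of 4 D7 libraries.

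Whether a change in FBs differed from that in HCs or ECs was tested as the difference between the D7 minus D0 changes, with edgeR on 72 libraries. CMs were left out, so the tests do not show that a change was particular to FBs among all cell types of the series. The cell types came from the same animals, which this fit did not take into account, so its p-values treat pools that share animals as independent. HC D0 replicate 3 held 18286 counts only. Of 670 miRNAs, 141 (21%) differed from HCs and 139 (20.7%) from ECs, but the direction of these calls turned with the scaling and, for ECs, with single libraries. With TMM, 102 were relatively higher in FBs than in HCs and 39 lower; with library size alone, 59 and 114. For ECs the numbers were 115 and 24 with TMM, and 33 and 101 with library size. They were 28 and 83 without EC D0 replicate 1, and the majority turned likewise without any other single D0 library of ECs or FBs, without EC D7 replicate 1 and without FB D7 replicate 2. Single miRNAs are therefore given only from the miRNAs called in the same direction under every alternative run, 65 for HCs (48 relatively higher in FBs) and 40 for ECs (23 relatively higher). Fold changes in this fit are on a scale shared by the cell types and differ from those given above.

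miR-146b-5p rose more in FBs than in both other types. The difference of log2 fold changes was 2.20 against HCs (SE 0.28, adjusted p = 8.2e-09; 1.87 with library size alone) and 2.70 against ECs (SE 0.29, adjusted p = 3.1e-11; 1.85). Its level (library size only) was 149 to 207.5 CPM in FBs at D0 and 457 to 791 CPM at D7, 3184 to 4867 and 3298 to 4366 CPM in HCs, and 418 to 488 and 445 to 523 CPM in ECs. miR-148a-3p also rose more in FBs than in ECs, by 2.58 (SE 0.39, adjusted p = 4.7e-07; 1.75 with library size alone), and than in HCs, by 1.77 (1.41). Against HCs, miR-322-3p differed by 2.22 (1.74), miR-143-3p by 2.61 (2.23) and miR-204-5p by 2.19 (1.72). For the last pair the log2 fold changes were 0.47 and 0.21 in FBs and -2.14 and -1.99 in HCs. In the HC libraries the sums of markers of other cells were lower at D7, from a median of 26333 to 6303 CPM for mural cells, 73081 to 22140 CPM for ECs and 110350 to 31062 CPM for CMs (library size only), and miR-143-3p is itself a mural marker. Their part in these differences was not tested. miR-222-3p differed by -1.38 (-1.84).

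Against ECs, both miR-34b-5p and miR-337-5p rose in FBs and rose more in ECs. They differed by -1.54 (-2.40 with library size alone) and -1.38 (-2.24). miR-337-5p is a member of the Dlk1-Dio3 domain. With TMM, every domain member called against ECs was relatively lower in FBs. Among those that held under every alternative were miR-541-5p (1.53 in FBs and 2.62 in ECs) and miR-341-3p (2.68 and 5.23), picked after their values were seen. Fibroblast markers in the EC libraries had a median sum of 4628 CPM at D0 and 18826 CPM at D7. Their part in these larger EC rises was not tested. miR-122-5p and miR-122b-3p differed by -1.91 and -1.94. The remaining differences named by the same rule did not hold in every alternative: miR-10a-5p and miR-10b-5p against ECs, and miR-93-5p, miR-181b-5p and miR-181d-5p against HCs.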

How the data were processed

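Small RNA libraries were made with a ligation kit from 150 ng of FB RNA and 15 PCR cycles. The deposited values are raw counts of reads per mature miRNA. The authors used the nf-core smrnaseq pipeline with Trim Galore, removed reads under 18 nt and state miRBase version 21. The submitters' processing notes also name Bowtie2, SAMtools and mm10. Reads shared by near-identical miRNAs may be split or repeated by the aligner, so such members are uncertain. PCR duplicates cannot be told from separate molecules in these counts.

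The row of unaligned reads (27.7% to 31.3% of reads at D0 and 30.6% to 38.4% at D7) was left out. Counts of 24 FB libraries were fitted with edgeR 4.0.16 (TMM, filterByExpr, quasi-likelihood test, R 4.3.3) with day as the group, and p-values were adjusted by Benjamini-Hochberg over the 563 miRNAs tested. Arm ratios were log2((5p + 0.5)/(3p + 0.5)), tested with limma 3.58.1. Differences between cell types were fitted with edgeR on 72 libraries. DESeq2 1.42.0 was an alternative. The fits were tested on simulated data. The study left out 1 FB library of D0 that it does not name, and all 4 were used here.

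The miRNAs and lists were chosen with earlier results of these data known. Named were the 12 largest rises and falls with an adjusted p under 0.05, at least 100 CPM and no overlap of the days, the 6 most abundant miRNAs, the 2 most abundant members of each list with every marker, the 4 largest arm ratio changes each way with at least 50 counts per arm, and the 4 largest differences from HCs and ECs each way. Further miRNAs were singled out after their values were seen: miR-183-5p, miR-182-5p, miR-96-5p, miR-31-5p, the miR-200 group, miR-323-3p, miR-341-3p, miR-541-5p, miR-411-5p, miR-503-5p, miR-322-5p, miR-29b-3p, miR-15a-5p, miR-148b-3p, further let-7 and miR-34 arms, and the arms of hairpins named for their ratio. Gene positions are from GENCODE M21 and RefSeq on GRCm38.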

Additional observations from a re-analysis of the deposited data

Results flagged for a closer look

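Of 290 sets of 4 libraries tested for a library far from the rest, 21 were marked, and chance marks about 1 in 20. The value given is the gap to the nearest library as a share of the range. At D7 replicate 4 was the highest for miR-1a-3p (0.832), miR-499-5p (0.908), miR-450a-5p (0.869), miR-132-3p (0.841), miR-322-3p (0.832) and miR-322-5p (0.949), and stood apart for the arm ratio of miR-296 (0.872). D7 replicate 2 was marked for miR-150-5p (0.981), miR-126b-5p (0.835), miR-223-3p (0.845) and miR-20a-5p (0.947). D7 replicate 3 was marked for miR-126a-3p (0.878), miR-142a-5p (0.844), miR-451a (0.836), miR-144-3p (0.859) and miR-455-5p (0.830), and D7 replicate 1 for let-7g-5p (0.856). At D0, replicate 2 was marked for miR-223-3p (0.858) and the arm ratio of miR-151 (0.902), and replicate 3 for miR-144-5p (0.846) and miR-182-5p (0.931).

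The D7 minus D0 change differed between FBs and HCs (edgeR interaction, log2, FB minus HC) by 2.61 for miR-143-3p, 2.22 for miR-322-3p, 2.20 for miR-146b-5p, 2.19 for miR-204-5p, -1.01 for miR-93-5p, -1.09 for miR-181d-5p, -1.34 for miR-181b-5p and -1.38 for miR-222-3p. Between FBs and ECs it differed by 2.70 for miR-146b-5p, 2.58 for miR-148a-3p, 1.81 for miR-10a-5p, 1.76 for miR-10b-5p, -1.38 for miR-337-5p, -1.54 for miR-34b-5p, -1.91 for miR-122-5p and -1.94 for miR-122b-3p. Those of miR-93-5p, miR-181b-5p and miR-181d-5p from HCs and of miR-10a-5p and miR-10b-5p from ECs did not hold in every alternative.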

How the results depend on the processing

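The number of miRNAs changed (257) was 257 in DESeq2, 233 with library size alone, 235 without a filter on low counts, 243 from the libraries of D0 and D7 only, 240 with 1 entry per identical set and 211 to 261 when 1 library was left out. The number of changed arm ratios (33) was 12 with no minimum count, 15 from the libraries of D0 and D7 only and 17 to 47 with 1 library left out (17 without D0 replicate 3, 18 without D0 replicate 4, 47 without D0 replicate 2); the cause was not tested. Differences from HCs (141) numbered 174 in DESeq2 and 173 with library size alone and those from ECs (139) 120 in DESeq2, with the split by direction turning as given in the report; TMM within each cell type, added after seeing the data, gave 52 higher and 129 lower for HCs and 36 and 86 for ECs. With a replicate block the counts were 252, 33, 135 and 140. This block was by replicate number over all days, so it does not model the pools of different cell types that share animals on 1 day. The D0 and D7 libraries came from different mice, so the same number does not mark a pair of animals, and the numbers were not taken as pairs. Libraries with the same number correlated at 0.024, -0.11, 0.30 and -0.037 in their deviations. Not every library correlated best with its own number. Of 1910 alternative values for single miRNAs, 1726 kept direction and side of the threshold, 104 lost and 51 gained a call, and 29 changed sign, none of these passing the threshold. With library size alone the sign changed for miR-99a-5p (0.035), miR-100-5p (0.0094), miR-27a-3p (0.10), miR-27b-3p (0.066), miR-210-3p (0.050), miR-210-5p (0.087) and miR-152-3p (0.18). miR-152-3p was also at 0.020 in DESeq2, 0.064 without a filter, 0.027 from D0 and D7 only and 0.026 with 1 entry per identical set. With 1 library left out, signs turned within -0.28 to 0.010 (miR-99a-5p), -2.21 to 0.048 (miR-208a-3p), -0.22 to 1.30 (miR-223-5p), -1.06 to 0.16 (miR-451a), -0.064 to 0.081 (miR-143-3p), -0.83 to 0.042 (miR-20b-5p), -0.30 to 0.033 (miR-210-3p), -0.45 to 0.037 (miR-210-5p), -0.12 to 0.059 (miR-152-3p), -0.39 to 0.024 (miR-204-5p), -0.12 to 0.27 (miR-200c-3p) and, for FBs minus HCs, -1.36 to 0.12 (miR-181d-5p); the causes were not tested. D0 replicate 2 was the shallowest library compared in FBs, with 2217588 counts, in which 1 CPM is about 2 reads. Without it 256 miRNAs were called changed, and the fewest, 211, were called without D0 replicate 3.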

Other observations

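miR-182-5p of the miR-183 cluster, high at D7 in FBs, was also higher at D7 in ECs, HCs and CMs (levels with library size only, described after they were seen). In the edgeR fit of 72 libraries it rose by 3.06 in ECs (adjusted p = 9.2e-09) and 1.175 in HCs (adjusted p = 0.0070). CMs were not in that fit and were not tested. Its FB change exceeded that in HCs in every alternative (4.06 with TMM). The difference from ECs (2.17, adjusted p = 0.0021) did not hold in every alternative. miR-182-5p was at 3.52 to 4.19 CPM in ECs at D0 and 26.6 to 73.8 CPM at D7, and at 2.76 to 4.74 and 14.3 to 20.7 CPM in CMs. In FBs the same scale gave 4.06 to 5.32 and 56.6 to 226 CPM. In HCs it was at 22.1 to 48.5 CPM at D0, leaving out HC D0 replicate 3, which held 18286 counts and listed it at 0, and at 58.7 to 126 CPM at D7. miR-31-5p was at 0.781 to 1.80 CPM in FBs at D0 and 17.2 to 30.5 CPM at D7, and at 1.74 to 3.24 and 21.4 to 53.9 CPM in CMs.

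miR-200a-3p, of a group known from epithelial cells, had 3.42 ± 1.34 CPM at D0 and 8.97 ± 3.32 CPM at D7 in FBs (SD, n = 4; log2 fold change 1.42, edgeR adjusted p = 0.0022), with D7 replicate 2 inside the D0 range. miR-141-3p had 1.74 ± 1.03 and 4.88 ± 2.69 CPM (1.74, adjusted p = 0.0011). miR-200b-3p (0.95, adjusted p = 0.014) and miR-429-3p (1.44, adjusted p = 0.012) were also higher, with overlap of the days. The level of miR-429-3p was low, at 0.382 CPM on average at D0 and 0.890 CPM at D7. miR-200c-3p was not called (5.01 ± 1.33 and 5.06 ± 1.65 CPM, adjusted p = 0.95). The mean of miR-200a-3p in FBs was higher at D3, at 26.4 CPM. In HCs, with library size only, miR-200a-3p was at 65.4 to 123 CPM at D7. In the edgeR fit of 72 libraries its FB change exceeded that in ECs in every alternative (3.67 with TMM, with -1.84 in ECs). The difference from HCs (1.48, adjusted p = 0.019) did not hold in every alternative.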
